A study of Mus musculus with 18 samples.

Results

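The ribosomal A site is the place where each codon of an mRNA meets the tRNA or release factor that reads it, and the 14 codons described here are those of lysine, glutamine, glutamate, isoleucine, methionine and tryptophan together with the stop signals. They are 14 of the 64 codon rows in a table of A-site codons from ribosome profiling of mouse brain. The rule that chose them used the amino acid named in the table and no measured value, though earlier results of these data were known. Ribosome profiling sequences the mRNA fragments that ribosomes shield, and the codon lying in the A site of each fragment was counted. The brains came from 3 male Ftsj1 KO mice and 3 male wild-type (WT) mice, all C57BL/6 and aged 8 weeks, and each mouse gave 1 MiSeq library of A-site codons, 1 HiSeq library of ribosome-contained mRNA and 1 HiSeq library of total mRNA, 18 libraries in all. How the Ftsj1 allele was made is not given in the sources used here. The labels number the mice within a genotype, so each replicate is an animal.

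Ftsj1 encodes an enzyme that adds a methyl group to the ribose of bases in the anticodon loop of tRNA, with tRNA-Phe as its best known substrate, and its yeast counterpart also acts on tRNA-Trp and tRNA-Leu. The codons of lysine, glutamine and glutamate come in pairs that end in A or G, whose A-ending codon is read by a tRNA with a modified uridine at the wobble position. Methionine and tryptophan have a single codon each in nuclear genes. Stop codons of nuclear genes are normally read by no tRNA: the release factor eRF1, acting with eRF3, recognises them, and ribosomes pause there while the finished protein is released. A ribosome that begins translation holds the start codon in its P site, so the first codon to enter the A site is the one after it, and an ATG counted in the A site is normally an internal methionine.

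In DNA letters, the coding strand read 5′ to 3′, lysine is encoded by AAA and AAG, glutamine by CAA and CAG, and glutamate by GAA and GAG, so each of these pairs differs in its last letter alone. Isoleucine has ATA, ATC and ATT, methionine has ATG, and tryptophan has TGG, which lies 1 letter from the stop codons TAG and TGA. The remaining stop codon is TAA. Mouse mitochondria read ATA as methionine and TGA as tryptophan, which matters below where expected shares are computed.

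Between 49069 and 64853 codons were counted per library in KO brains and between 61959 and 71840 in WT brains. The 14 codons made up 28.1 ± 0.194% of them in KO and 28.4 ± 0.259% in WT (SD, n = 3 each), and the groups overlapped. Members ranged from 91 counts for TAA in 1 library to 3719 counts for GAG in another. Shares of single libraries carry Wilson 95% intervals that cover counting error only. A difference beyond sampling noise between replicates 1 and 2 was not detected in either genotype (chi-square per degree of freedom 1.14 and p = 0.213 in KO, 1.24 and p = 0.0928 in WT, over 64 codons), while the other 4 pairs within a genotype differed. Over the 14 codons alone WT replicates 1 and 2 did differ (chi-square p = 0.0369), and the labels name separate mice, so all 6 libraries were kept. Ftsj1 itself had 0 counts in all 12 HiSeq libraries, so the knockout could not be checked from these tables, and genes with several transcript models are often at 0 there. The brain markers Nefm, Gfap, Mbp, Mog and C1qa were present in every total mRNA library, whereas Myh6 of heart was at 0, as was Csf1r, which brain microglia also express.

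No codon of the 14 passed the test between genotypes. In a fit of all 64 codons with edgeR's quasi-likelihood test, 6 of 64 codons passed at a Benjamini-Hochberg adjusted p of 0.05, or 9.38%, and 0 of the 14 did. At an unadjusted p of 0.05, 1 of the 14 passed, AAA, against 13 of the 64. DESeq2 and limma each called 0 of the 14 and 2 of the 64. Shares in KO and WT did not overlap for 1 of the 14 codons, again AAA, and for 16 of all 64 codons, or 25.0%. The median log2 fold change (KO over WT) was -0.01 over the 14 codons and -0.00 over the 64. For scale, the phenylalanine codon TTC stood at 1.94 ± 0.0304% in KO and 1.43 ± 0.0736% in WT (SD, n = 3 each), a log2 fold change of 0.44 (SE 0.043), and TTT at 1.33 ± 0.0767% and 1.01 ± 0.0264%. The 95% interval of every member other than the stop codons lay between -0.14 and 0.19 on the log2 scale, and below the 0.36 at which the interval of TTC began.

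AAA, the rarer lysine codon in the A site, was the member with the lowest p. It made up 1.57, 1.60 and 1.58% of codons in KO replicates 1 to 3, against 1.49, 1.47 and 1.45% in WT replicates 1 to 3. Every KO library lay above every WT library, and the gap between the closest libraries of the genotypes was larger than the range within either genotype. Its log2 fold change was 0.10 (SE 0.042, 95% interval 0.02 to 0.19, adjusted p = 0.111, edgeR), so the difference did not pass. The replicates were closer together than counting error alone would place them: the pooled SD was 0.0164 percentage points, against 0.0499 expected from the counts. Each library's own interval, which its counts set, was wider than the gap, from 1.47 to 1.67% in KO replicate 1 and from 1.40 to 1.58% in WT replicate 1. The adjusted p stayed between 0.0687 and 0.407 over 15 alternatives.

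AAG, the more frequent lysine codon and second of the 64 in every library, stood at 4.67, 4.40 and 4.53% in KO and 4.50, 4.62 and 4.83% in WT. Those ranges overlapped, and its log2 fold change was -0.03 (SE 0.040, adjusted p = 0.745, edgeR). Lysine as a whole took 6.12 ± 0.119% of codons in KO and 6.12 ± 0.153% in WT. AAA formed 25.8 ± 0.737% of the lysine codons in KO and 24.0 ± 0.874% in WT (SD, n = 3 each), with no overlap. The log2 ratio of AAA to AAG was higher by 0.14 in KO, and a two-sided exact permutation test gave p = 0.1, the smallest that 3 against 3 allows, or 0.7 adjusted over 7 synonymous ratios.

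The glutamine pair had the smallest log2 fold changes of the lysine, glutamine and glutamate pairs. CAG stood at 2.58, 2.74 and 2.74% in KO and at 2.66, 2.77 and 2.72% in WT. CAA had 0.835, 0.844 and 0.887% in KO, against 0.913, 0.811 and 0.849% in WT. Both codons overlapped between genotypes, with log2 fold changes of -0.01 each. The 95% interval ran from -0.08 to 0.05 for CAG and from -0.13 to 0.11 for CAA. CAA formed 24.1 ± 0.511% of glutamine codons in KO and 24.0 ± 1.49% in WT.

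GAG, a glutamate codon, was the most frequent of all 64 codons in every library. It stood at 5.06, 4.85 and 4.64% in KO and at 5.18, 4.94 and 4.97% in WT. GAA had 3.09, 3.01 and 3.04% in KO, against 3.29, 3.03 and 3.17% in WT. Both were lower on average in KO, with overlap. By edgeR, GAG had a log2 fold change of -0.06 (SE 0.041, adjusted p = 0.440) and GAA one of -0.05 (SE 0.035, adjusted p = 0.365). Glutamate as a whole took 7.89 ± 0.234% in KO and 8.19 ± 0.253% in WT (SD, n = 3 each). In an edgeR fit of the 21 classes, which are the amino acids and stop, glutamate had a log2 fold change of -0.06 (SE 0.026, adjusted p = 0.112, edgeR). The split between GAA and GAG was 38.6 ± 0.910% GAA in KO and 38.6 ± 0.502% in WT. Glutamate passed without KO replicate 1 (log2 fold change -0.08, adjusted p = 0.0302, edgeR) and did not pass without any other single library, where its adjusted p was 0.131 to 0.441 and its log2 fold change was -0.03 without WT replicate 1 and -0.03 without KO replicate 3.

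Across the 21 classes of that fit, 2 passed, or 9.52%, namely phenylalanine and alanine, and 0 of the 7 classes described here did. At an unadjusted p of 0.05, 1 of the 7 passed, glutamate, against 8 of the 21, and DESeq2 and limma each called 0 of the 7 and 1 of the 21. The number passing among the 21 was 1 to 6 when single libraries were left out, with 6 without KO replicate 1. KO and WT shares were apart for 8 of the 21 classes, or 38.1%, and for 0 of these 7.

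Isoleucine is the only amino acid here with more than a pair of codons. ATC, its main codon, stood at 2.77, 2.86 and 2.83% in KO and at 2.80, 2.70 and 2.85% in WT. ATT had 1.99, 1.90 and 2.00% in KO, against 1.95, 1.92 and 1.94% in WT. ATA, the rare one, had 0.868, 0.844 and 0.763% in KO, against 0.782, 0.761 and 0.804% in WT. All 3 had a higher mean in KO, and all 3 overlapped. ATA had a log2 fold change of 0.07 (SE 0.062, 95% interval -0.05 to 0.19, adjusted p = 0.538, edgeR), which was 0.03 without KO replicate 1 and 0.13 without KO replicate 3. ATC and ATT had 0.02 each. Isoleucine as a whole took 5.60 ± 0.0139% in KO and 5.50 ± 0.113% in WT. Its KO libraries were closer to each other than its WT libraries, but the Wilson interval of KO replicate 1 alone was 5.43 to 5.81%. Glutamine as a whole had the reverse, 3.54 ± 0.109% in KO and 3.57 ± 0.00882% in WT. The isoleucine codons kept their proportions, with ATC at 50.3 ± 0.976% of them in KO and 50.5 ± 0.350% in WT.

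ATG, read inside coding sequences by the elongator tRNA-Met, stood at 1.98, 1.90 and 2.10% in KO and at 2.09, 1.99 and 2.03% in WT. The KO libraries spanned the whole WT range and more. Its log2 fold change was -0.03 (SE 0.039, 95% interval -0.10 to 0.05, adjusted p = 0.788, edgeR).

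TGG is read by tRNA-Trp, a substrate of the yeast counterpart of Ftsj1. It had 1.78, 1.84 and 1.77% in KO, against 1.73, 1.86 and 1.74% in WT. KO replicate 2 and WT replicate 2 were both the highest of their genotype, and WT replicate 2 exceeded all KO libraries. The mean was 1.80 ± 0.0347% in KO and 1.78 ± 0.0725% in WT (SD, n = 3 each), and the log2 fold change was 0.02 (SE 0.042, 95% interval -0.06 to 0.10, adjusted p = 0.888, edgeR). The largest increase inside that interval, a fold change of 1.07, is below the 1.28 at which the interval of TTC began.

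The stop codons together took 1.17, 1.20 and 1.19% of A-site codons in KO and 1.24, 1.25 and 1.09% in WT. The WT libraries spread on both sides of the KO ones, and the log2 fold change of the class was -0.01 (SE 0.071, 95% interval -0.15 to 0.13, adjusted p = 0.947, edgeR). TGA was the main stop codon, at 0.734, 0.776 and 0.739% in KO and 0.816, 0.772 and 0.713% in WT. TAG had 0.232, 0.236 and 0.251% in KO, against 0.242, 0.266 and 0.224% in WT, and was the 63rd of the 64 codons in every library. TAA, the rarest of the 64 codons in every library, had 0.208, 0.185 and 0.196% in KO, against 0.185, 0.210 and 0.153% in WT.

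Counts of 91 to 133 lay behind the TAA shares, so this is the least precise member. In WT replicate 3 its 95 counts gave a Wilson interval of 0.125 to 0.187%. The log2 fold change was 0.11 (SE 0.121, 95% interval -0.13 to 0.35, adjusted p = 0.742, edgeR) for TAA, which is as large as that of AAA but with a standard error that exceeds it. It was 0.00 without WT replicate 3, 0.21 without WT replicate 2 and 0.07 without KO replicate 1. It was -0.02 (SE 0.107) for TAG and -0.04 (SE 0.064) for TGA. TGA formed 63.2 ± 1.40% of the stop codons in KO and 64.3 ± 2.09% in WT. TAG formed 20.2 ± 0.829% in KO and 20.5 ± 0.921% in WT, and TAA 16.6 ± 1.13% and 15.2 ± 1.41%. None of the 7 synonymous ratios, the TAA to TGA and TAG to TGA ratios included, passed the exact permutation test, whose smallest possible p is 0.1.

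To see how often each codon would be met if ribosomes lay evenly along each coding sequence, the codon content of every gene was weighted by its ribosome-contained HiSeq counts in the same mouse, and the observed A-site share was divided by this expected share. The start codon was left out and the stop codon kept. The expected shares rest on 95.2 to 95.6% of the counts of each library, of which 92.9 to 93.1% fell on genes with 1 transcript accession. Observed and expected shares correlated across the 61 sense codons of each mouse with Pearson r of 0.889 to 0.908, a description over codons that are not independent replicates.

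All 3 stop codons and TGG were met more often than that. TAG had the highest ratio of all 64 codons, 3.69 ± 0.119 in KO and 3.75 ± 0.333 in WT (SD, n = 3 each). TGA ranked 3, at 2.18 ± 0.0207 in KO and 2.36 ± 0.219 in WT, and TAA ranked 4, at 2.07 ± 0.113 in KO and 1.92 ± 0.297 in WT. TGG ranked 6, at 1.64 ± 0.0395 in KO and 1.61 ± 0.0629 in WT, and it ranked 5 or 6 in every mouse. The ranges of KO and WT overlapped for TAG, TAA and TGG, and also for TGA, where the lowest WT library was below the KO ones.

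AAA stood at the other end, 60th of the 64, at 0.751 ± 0.00752 in KO and 0.705 ± 0.0102 in WT (SD, n = 3 each). That rank is of the mean over all 6 mice. The phenylalanine codons TTT and TTC were below AAA in WT, at 0.630 and 0.592, but above it in KO, at 0.820 and 0.801. AAA was expected to form 35.3% of lysine codons in KO and 35.0% in WT and formed the 25.8% and 24.0% given above, while the observed and expected shares of GAA within glutamate were close, 38.6% observed against 37.7% expected in KO and 38.6% against 37.5% in WT. Gene usage by itself gave an expected log2 fold change of 0.01 for AAA (2.10% in KO and 2.08% in WT). The remaining members lay nearer to 1. The ratio was 1.18 ± 0.0337 in KO and 1.20 ± 0.0470 in WT for AAG, 1.17 ± 0.0153 and 1.21 ± 0.0485 for GAA, and 1.13 ± 0.0497 and 1.16 ± 0.0276 for GAG. It was 0.862 ± 0.0290 in KO and 0.863 ± 0.0195 in WT for CAG, and 0.938 ± 0.0332 and 0.948 ± 0.0573 for CAA. ATC and ATT both had 1.07 in KO, with 1.05 and 1.07 in WT.

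ATG had 0.963 ± 0.0450 in KO and 0.980 ± 0.0232 in WT without the start codon, and 0.834 and 0.850 when the start codon of each gene was counted as a site. Weighted by total mRNA, with the start codon left out, the ratio was 1.07 in KO and 1.10 in WT.

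Mitochondrial genes bear on ATA and TGA, which are common there and mean methionine and tryptophan. They held 6.06 to 6.66% of ribosome-contained counts in KO and 5.62 to 6.07% in WT, and whether the A-site table includes mitochondrial footprints is not given in the sources used here. Left out of the expectation, they changed the ratio of ATA to 1.61 ± 0.105 in KO and 1.54 ± 0.0366 in WT, against 0.995 ± 0.0547 in KO and 0.980 ± 0.0138 in WT with them. The ratio of TGA became 4.58 ± 0.149 in KO and 4.77 ± 0.381 in WT, the highest of the 64, with TAG second. With mitochondrial genes included, gene usage gave an expected log2 fold change of 0.05 for ATA and 0.08 for TGA, where 0.07 and -0.04 were observed. Without those genes TGG had 1.54 ± 0.0322 in KO and 1.52 ± 0.0614 in WT and ranked 8 of the 64, and AAA again ranked 60. With total mRNA as the weights and mitochondrial genes included, TGA had 1.31 in KO and 1.30 in WT. On the same terms TAG had 3.70 and 3.77, TAA 2.04 and 1.87, TGG 1.78 and 1.77, and AAA 0.779 and 0.724. With total mRNA as the weights but without mitochondrial genes, TGA had 4.37 ± 0.164 in KO and 4.47 ± 0.292 in WT. TGG then had 1.54 in KO and 1.52 in WT.

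Levels of the genes that act on these codons were taken from the HiSeq tables, over a list of 18 genes for aminoacyl-tRNA synthetases, termination, start-codon delivery and selenocysteine, which is inserted at particular TGA codons. Rows are transcript accessions, and 7 of the 18 genes passed the edgeR filter on low counts in ribosome-contained mRNA, and 11 genes with 12 rows in total mRNA. No list gene passed in either kind, with 10 of 4749 rows (0.211%) passing in ribosome-contained mRNA and 27 of 8206 (0.329%) in total mRNA by edgeR. DESeq2 called none of the list in either kind, and 9 rows in ribosome-contained and 16 in total mRNA. At an unadjusted p of 0.05, 1 of the 7 rows passed in ribosome-contained mRNA and 0 of the 12 in total mRNA, against 450 and 669 of all rows. The median log2 fold change was 0.09 over the 7 rows, against 0.00 over all rows, and 0.04 over the 12 rows in total mRNA, against 0.01. Kars, Wars, Eprs and Gspt1 did not pass the filter, which for genes with several transcript models does not show that they were off.

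Etf1, which encodes eRF1, had 190, 174 and 179 CPM (counts scaled to a common library size) of ribosome-contained mRNA in KO, against 159, 188 and 160 CPM in WT. The groups overlapped, and its log2 fold change was 0.10 (SE 0.097, adjusted p = 0.814, edgeR). Gspt2, which encodes a form of eRF3, had 270 ± 24.2 CPM in KO and 253 ± 13.1 CPM in WT (SD, n = 3 each), with a log2 fold change of 0.09 (SE 0.082, adjusted p = 0.799, edgeR). It is a copy of Gspt1 without introns, and counting could split reads between them. Qars, the glutaminyl-tRNA synthetase, had 255, 244 and 282 CPM in KO, against 235, 258 and 222 CPM in WT, which overlapped.

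Eif2s2 encodes the beta subunit of eIF2, which carries initiator tRNA-Met to the ribosome, and was the list gene with the lowest p. It had 39.6, 47.2 and 46.1 CPM of ribosome-contained mRNA in KO, against 29.4, 34.9 and 35.0 CPM in WT. Its log2 fold change of 0.42 (SE 0.192, adjusted p = 0.496, edgeR) did not pass. In total mRNA it had 34.5 ± 4.63 CPM in KO and 34.5 ± 4.88 CPM in WT. The other eIF2 subunits tested, Eif2s1 and Eif2s3x, had log2 fold changes of -0.08 (SE 0.105) and -0.17 (SE 0.248) in ribosome-contained mRNA. Sephs2, which makes the selenium donor for selenocysteine, had 51.1, 67.7 and 73.9 CPM in KO, against 69.8, 52.3 and 70.1 CPM in WT, a log2 fold change of -0.00 (SE 0.163).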

How the data were processed

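For each MiSeq library, the authors deposited raw counts of A-site codons, and for each HiSeq library raw counts of reads per RefSeq transcript, per the file headers. The submitters' processing notes name Bowtie2, HISAT2, HTSeq and mm10 without role or version. The sources used here do not give how the A site was placed in a footprint or whether reads were counted by strand. Columns name no instrument, so ribosome columns were assigned to MiSeq or HiSeq from the table names.

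The members, lists and tests were chosen with earlier results of these data known. All 14 codons are named; of the gene list, only genes that passed the filter are given values. Counts of all 64 codons were fitted with edgeR 4.0.16 (quasi-likelihood, robust, R 4.3.3), with the sum of 64 codons as library size, no TMM and no filter. The HiSeq fits used TMM and filterByExpr. Alternatives used limma 3.58.1 and DESeq2 1.42.0. Log2 fold changes are KO over WT, adjusted p-values are Benjamini-Hochberg over each whole table (threshold 0.05), and n = 3 mice per genotype. Coding sequences came from GENCODE M21 (GRCm38, the build that mm10 names) and were read with Python 3.11.15. The scripts were tested on simulated data. Among the MiSeq libraries, same-numbered KO and WT libraries did not deviate together from the means of their genotypes. The correlations over the 64 codons were -0.0444, 0.0181 and -0.0225 for replicates 1 to 3, so the main fits used no pairing. The HiSeq libraries were not checked in this way.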

Additional observations from a re-analysis of the deposited data

How the results depend on the processing

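None of the 14 codons passed under any of 15 alternatives: sense codons only, TMM, DESeq2, limma, a minimum of 100 counts, thinning, the replicate block, each library left out, replicates 1 and 2 summed, and Phe codons left out. Stop codons were not in the first of these, nor TAA in the fit with a minimum of 100 counts. All codons that passed numbered 6 as reported, 3 to 4 without single libraries, 2 with DESeq2, limma or summed replicates, and 1 with Phe codons left out. Of the 7 classes, 0 passed as reported, and 1 (glutamate) passed with the replicate block (adjusted p = 0.0168, edgeR) and without KO replicate 1, so leaving out libraries gave 0 to 1. Of all 21 classes, 2 passed as reported, 1 to 6 without single libraries, 4 with the replicate block or sense codons only, 1 with TMM, DESeq2, limma, thinning or summed replicates, and 0 with Phe codons left out. AAA kept a positive log2 fold change, 0.09 to 0.11. Signs that turned were all near 0 and uncalled. Among the single-library omissions, the log2 fold change ran from -0.0435 to 0.0457 for CAA, -0.0313 to 0.0134 for CAG, -0.00102 to 0.0362 for ATC, -0.0697 to 0.00179 for ATG, -0.000595 to 0.0516 for TGG, -0.0736 to 0.0412 for TAG and -0.0887 to 0.00995 for TGA. For classes it ran from -0.0148 to 0.0210 for Lys, -0.0319 to 0.0135 for Gln, -0.0697 to 0.00187 for Met, -0.000835 to 0.0511 for Trp and -0.0709 to 0.0197 for Stop. Thinning turned ATG to 0.0234 and CAA to 0.0115. Leaving out Phe codons turned CAA to 0.00699 and Gln to 0.000400. Lys turned to -0.00459 with DESeq2, -0.000205 with limma and -0.00219 with summed replicates. No list gene passed under any alternative. The synonymous ratios had no call to lose, since their exact test cannot go below 0.1. Their KO minus WT difference kept its sign for AAA to AAG, ATA to ATC and TAA to TGA and turned for the other 4, as for CAA to CAG, 0.0124 as reported and -0.0422 without WT replicate 2. In ribosome-contained mRNA the rows passing numbered 10 as reported, 48 with the replicate block and 4 to 24 without single libraries, and in total mRNA 27, 32 and 9 to 42. The cause of these changes was not tested. TAA and TAG are limited by 91 to 174 counts per library.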
